A study of Mus musculus with 6 samples.

Results

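Genes that mark bile duct cells and liver progenitor cells were examined in mouse livers made to express Sonic Hedgehog (SHH), a secreted protein that switches on Hedgehog signalling in the cells that receive it. The 9 genes were given by name: the transcription factors Sox9 and Sox4, the keratins Krt7 and Krt19, the surface proteins Epcam, Prom1 and Cd24a, the chloride channel Cftr and the secreted protein Spp1. Of these, 8 were measured among 22180 genes, and Spp1 was not analysed here. Each gene was read from the probe set that named it alone and had the highest mean over the arrays.

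The 6 livers came from male C57BL/6 mice, each on its own Affymetrix array. GFP livers, the controls, expressed green fluorescent protein and came from mice 13, 21 and 6. SHH livers came from mice 26, 28 and 31. Where 3 values are given for a group, they follow this order of mice. According to the series' design text, the genes were introduced by hydrodynamic transfection, in which DNA injected rapidly in a large volume is taken up mainly by hepatocytes, and hepatic fibrosis and the expression of genes tied to it were the study's question. It applies this method to the model as a whole, so the controls are taken to share it. The labels name no further treatment. The labels give neither the age of the mice nor the time after injection.

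Bile ducts drain bile from the liver and are lined by cholangiocytes, which share a fetal precursor, the hepatoblast, with hepatocytes. In many chronic liver injuries small ducts and cells with mixed duct and hepatocyte features multiply near the portal tracts, a change called the ductular reaction. Genes such as Sox9, Epcam and Krt19 are used to follow it, and duct cells are also known as a source of and a responder to Hedgehog ligands. Cholangiocytes are a small share of liver cells. In whole liver RNA, fewer cells of a type and less RNA per cell cannot be told apart.

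None of the measured duct and progenitor genes passed the threshold in SHH livers. Adjusted p values are from limma over all 22180 genes with a threshold of 0.05, and 0 of 8 members passed in either direction. The background was 0% of all genes past the same threshold. Of the members, 4 had higher and 4 had lower means in SHH livers, and their median difference was 0.01 on the log2 scale, against -0.03 over all genes, of which 43.8% had higher and 56.2% lower means. At an unadjusted p under 0.05, 1 member was higher (Cd24a) and 0 were lower, where 7.34% of all genes passed either way, 3.33% higher and 4.01% lower. The median absolute difference was 0.07 for the members and 0.12 for all genes, and 5 of the 8 members differed by less than 0.12.

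The labels were checked first on the introduced gene and on the tissue. Shh signal was 3.43, 3.67 and 3.86 in the GFP livers and 4.57, 4.28 and 4.63 in the SHH livers. Each SHH liver lay above each GFP liver, although the difference of 0.84 did not pass over all genes (limma, adjusted p = 0.356). All 11 measured hepatocyte markers, among them albumin, lay above the median level of all genes, and the log2 of their summed linear signal was 16.17 to 16.18 in GFP livers and 16.16 to 16.24 in SHH livers. Sums over other marker lists are given on that same scale, where the brightest genes of a list weigh most. Median signals of the arrays ran from 4.32 to 4.40 over all probe sets.

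Sox9, the transcription factor that marks duct cells from the first steps of bile duct formation, had nearly the same mean in both groups. Its log2 signal was 5.74, 6.19 and 5.595 in the GFP livers, and 5.78, 6.02 and 5.79 in the SHH livers. The SHH livers lay within the range of the GFP livers, whose highest value, in mouse 21, was the highest of all. The difference was 0.02 with a 95% interval of -0.37 to 0.41 (limma, adjusted p = 0.988), so the interval reached from 1.29-fold lower to 1.33-fold higher. Sox9 is also made by activated stellate cells, and the log2 of the summed signal of 12 stellate cell and fibroblast markers was 10.67 to 10.88 in GFP livers and 10.90 to 11.14 in SHH livers. The part of these cells in the Sox9 signal was not tested.

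Sox4, which works beside Sox9 in shaping the bile ducts, had the largest spread of the members. It gave 3.46, 3.27 and 3.90 in the GFP livers and 2.95, 3.41 and 3.44 in the SHH livers. The groups overlapped, with GFP 6 the highest and SHH 26 the lowest liver. The difference of -0.27 had a 95% interval of -0.73 to 0.18 (limma, adjusted p = 0.823), and it became -0.09 without GFP 6. A second probe set for Sox4 had a difference of -0.11, with 2.60 to 2.74 in GFP livers and 2.48 to 2.70 in SHH livers. All its values lay below the lower quartile of signal of their arrays (3.13 to 3.22), where a probe set reports little of a change. In the first probe set the value of SHH 26 also lay below that quartile.

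Krt7 and Krt19 encode the intermediate filament proteins by which pathologists recognise bile duct epithelium. Krt7 measured 4.49, 4.38 and 4.66 in the GFP livers and 4.81, 4.17 and 4.35 in the SHH livers. The SHH livers held both the highest value, in mouse 26, and the lowest, in mouse 28, and the difference was -0.07 (95% interval -0.47 to 0.33; limma, adjusted p = 0.960). Krt19 gave 3.39, 3.71 and 3.58 in the GFP livers against 3.62, 3.33 and 3.64 in the SHH livers. Here too the groups overlapped, and the difference was -0.03 (95% interval -0.36 to 0.30; limma, adjusted p = 0.975).

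Of the surface proteins, Epcam, an epithelial cell adhesion molecule absent from mature hepatocytes, had 3.72, 3.94 and 4.18 in the GFP livers. In the SHH livers it had 3.89, 3.96 and 3.95. All SHH values fell inside the GFP range, and the difference was -0.01 (95% interval -0.34 to 0.32; limma, adjusted p = 0.995). The sign of the small differences of Epcam and Krt19 turned with a second quantile normalization (to 0.03 and 0.01), and that of Epcam also with equal array medians (0.01). Prom1, the membrane protein CD133 used to sort progenitor cells, gave 3.95, 3.89 and 3.52 in the GFP livers and 3.75, 4.01 and 3.83 in the SHH livers. Its groups overlapped, with a difference of 0.07 (95% interval -0.27 to 0.42; limma, adjusted p = 0.951).

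**Figure D1:**
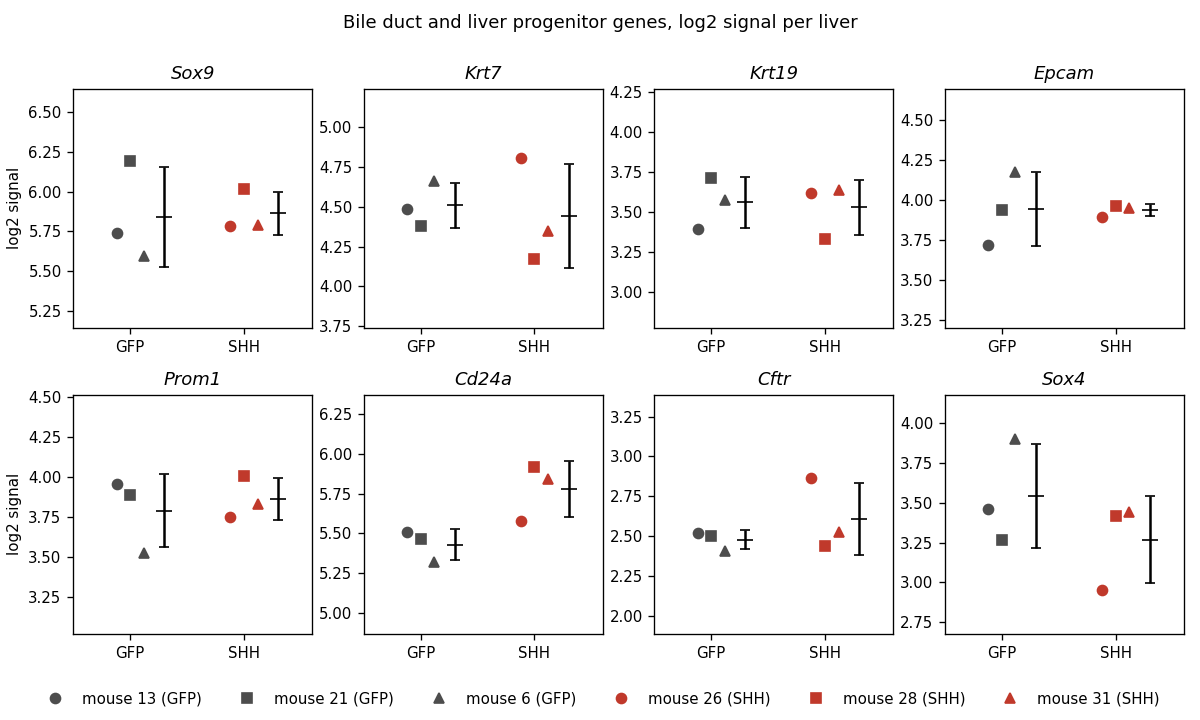
Log2 signal of the 8 measured members in each liver (points, shaped by mouse), with the mean and SD of each group (n = 3) as a black bar beside them; every panel spans the same height on the log2 scale. The GFP and SHH points overlap in 7 panels, and in the Cd24a panel the 3 SHH livers (5.58 to 5.92) lie above the 3 GFP livers (5.32 to 5.51).

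Cd24a, a small surface glycoprotein of progenitor and duct cells that many leukocytes also carry, was the member whose groups did not overlap. The log2 signal was 5.51, 5.46 and 5.32 in the GFP livers and 5.58, 5.92 and 5.84 in the SHH livers. SHH 26 stood closest to the GFP livers. Over all genes, 5.26% had every SHH liver above every GFP liver. The means were 5.43 ± 0.10 and 5.78 ± 0.18 (SD, n = 3), a difference of 0.35 or 1.27-fold (95% interval 0.04 to 0.66). It did not pass over all genes (limma, adjusted p = 0.647).

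The second probe set naming Cd24a alone did not follow the first. It measured 4.37, 3.48 and 3.07 in the GFP livers and 3.37, 3.59 and 3.33 in the SHH livers, so that GFP 13 was the highest liver and GFP 6 the lowest. Its difference was -0.21, and with the mean of both probe sets the difference of Cd24a became 0.07 (limma, adjusted p = 0.964). The second probe set was also dimmer, with a mean of 3.53 against 5.60 for the first. Cd24a has near-identical pseudogene copies in the mouse genome, so both signals are uncertain. Whether either probe set reads such a copy was not tested.

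Markers of leukocytes were higher in the SHH livers too. The log2 of the summed signal of 10 neutrophil markers was 7.16, 6.91 and 7.19 in GFP livers and 7.24, 8.35 and 8.24 in SHH livers. For 11 lymphoid markers it was 8.03, 8.35 and 8.24 in GFP livers and 8.70, 9.30 and 9.61 in SHH livers. Ighm was the brightest of these markers and weighs most in their sum. It measured 6.70, 7.23 and 7.08 in GFP livers and 7.67, 8.64 and 8.85 in SHH livers. SHH 26 was the lowest SHH liver in both lists, as it was for Cd24a, but the order of the GFP livers differed: GFP 6 had the lowest Cd24a signal and the highest neutrophil and macrophage sums of that group. All 10 neutrophil markers and 10 of 11 lymphoid markers had higher means in SHH livers, though Cd79b (0.00) and Ms4a1 (0.02) hardly differed. In each list 4 markers had every SHH liver above every GFP liver, against 5.26% of all genes. By mean level, 9 of the neutrophil and 6 of the lymphoid markers lay below the median of all genes (4.69). The markers with the largest differences were the calprotectin subunits S100a9 and S100a8 (1.84 and 1.503) and Retnlg (1.55) among neutrophil genes, and Jchain (1.46), Ighm (1.38) and Cd3g (1.02) among lymphoid genes. None of these genes passed over all genes in limma (adjusted p from 0.174 for Jchain to 0.490 for Cd3g). Of 12 macrophage markers 11 had higher means, led by Mpeg1 (1.44), Cd163 (0.96) and Adgre1 (0.83), and their sums were 10.14, 10.09 and 10.88 in GFP livers and 10.77, 11.07 and 11.71 in SHH livers, which overlapped. The part of these cells in the Cd24a signal was not tested.

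**Figure D2:**
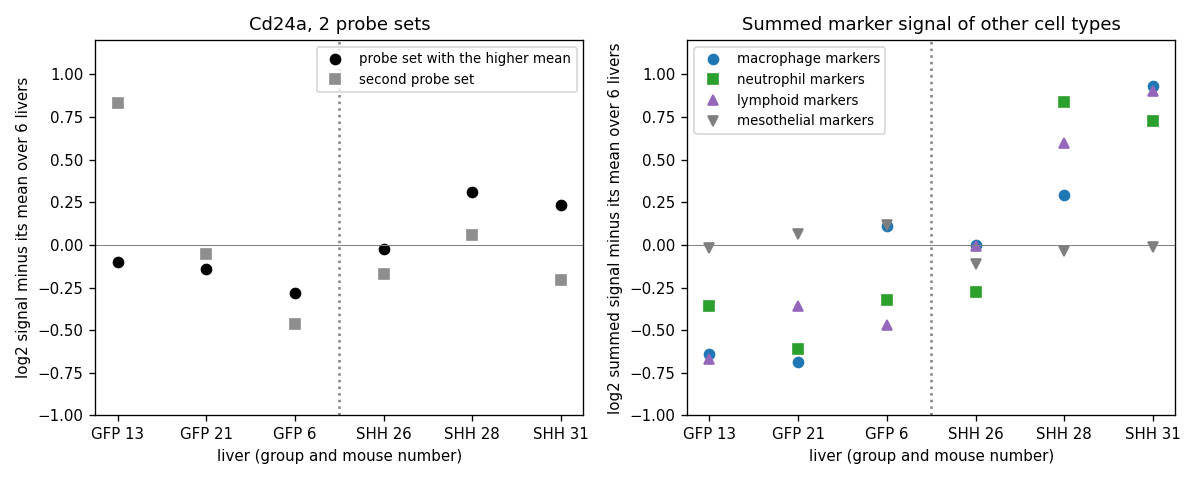
Left, the log2 signal of both Cd24a probe sets in each liver minus the probe set's own mean; right, the log2 of the summed signal of macrophage, neutrophil, lymphoid and mesothelial markers in each liver minus the list's own mean, with the dotted line dividing GFP from SHH livers. The probe set with the higher mean is above 0 in SHH 28 and SHH 31, where the neutrophil and lymphoid sums are also high, while the second probe set peaks in GFP 13.

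Cftr, the chloride channel through which cholangiocytes secrete fluid into bile, gave 2.52, 2.502 and 2.41 in the GFP livers and 2.86, 2.44 and 2.52 in the SHH livers. The groups overlapped, and SHH 26 stood above the other livers. The difference of 0.13 (95% interval -0.19 to 0.46; limma, adjusted p = 0.893) was 0.00 without that mouse. On all 6 arrays Cftr lay below the lower quartile of signal (3.13 to 3.22), where a probe set reports little of a change.

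Low signal limits most of the other members as well. Krt19, Epcam, Prom1, Cftr and Sox4 lay below the median signal of all probe sets on all 6 arrays and Krt7 on 2 of them. By mean level, 6 members, Krt7 included, lay below the higher median of all genes (4.69). The exceptions, Sox9 and Cd24a, were above the median on every array. Within that limit, the 95% intervals of all 8 members stayed inside -0.73 to 0.66, so none reached a change of 1 on the log2 scale, which is 2-fold. The same held for 96.1% of all genes.

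**Figure D3:**
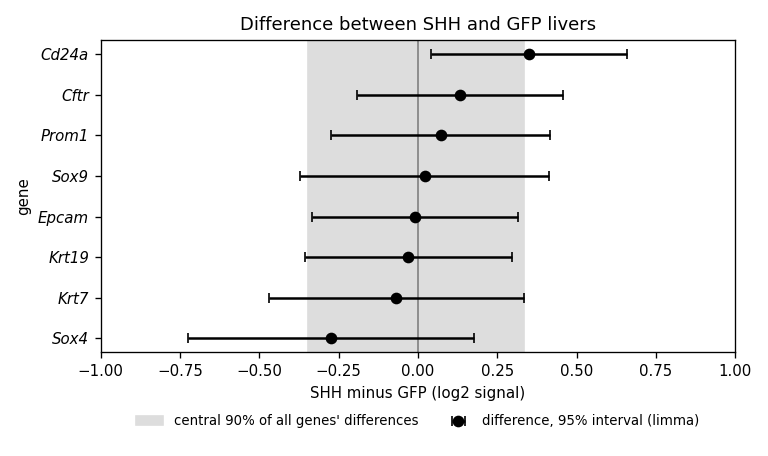
Difference of mean log2 signal, SHH minus GFP livers (x axis), for each member (y axis), with its 95% interval from limma (3 against 3 livers); the grey band, from -0.35 to 0.34, holds the central 90% of all genes' differences. The interval of Cd24a (0.04 to 0.66) lies above 0, and those of the other 7 members cross 0.

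The members had no common order across the 6 livers. Of 28 pairs, 11 had a Pearson r above 0 and 17 below, with a median of -0.17 and a range from -0.83 (Cftr with Sox4) to 0.64 (Sox9 with Prom1). Krt7 and Krt19 had r = 0.38 and Sox9 and Krt19 r = 0.12. These are descriptions over 6 arrays that share the group difference, with no test. The log2 of the members' summed signal was 7.45 to 7.62 in GFP livers and 7.54 to 7.65 in SHH livers, which overlapped.

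Patterns most like those of the members above the median level were looked up among 10502 named genes that also lay above it. Cd24a was most like Cfb (r = 0.994) and Serping1 (r = 0.987), which encode complement factor B and the C1 inhibitor made by the liver, and Ccdc134 (r = 0.986). Sox9 was most like Nim1k (r = 0.976), Pnrc1 (r = 0.971) and Eogt (r = 0.970). Over 6 arrays and so many genes, values this high are a description of likeness only.

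Other genes of bile duct cells, not all of them particular to duct cells, gave a similar count in each direction. Of 22 measured, 12 had higher and 10 lower means in SHH livers, 0 passed in either direction in limma over all genes, and the median difference was 0.02. At an unadjusted p under 0.05, 1 was higher (Slc10a2) and 1 lower (Pkhd1), where 3.33% of all genes were higher and 4.01% lower. Some genes of this list were bright in whole liver RNA. Krt8, Krt18, Cdh1 and Cldn3 had mean signals of 8.82, 8.74, 7.57 and 7.49, against 3.54 for Krt19. The part of cells other than duct cells in these signals was not tested. Pkhd1, which encodes fibrocystin of the cholangiocyte cilium, was 5.92, 5.65 and 5.81 in the GFP livers and 5.43, 5.34 and 5.57 in the SHH livers. Every SHH liver was below every GFP liver, as in 7.25% of all genes, and the difference was -0.35 (limma, adjusted p = 0.634).

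The tight junction gene Cldn3 had the same order, with 7.52 to 7.73 in GFP livers and 7.10 to 7.47 in SHH livers (difference -0.31; limma, adjusted p = 0.703). Slc10a2, the apical transporter by which cholangiocytes take bile acids back up, was 5.45 to 6.08 in GFP livers and 5.95, 8.07 and 6.70 in the SHH livers. SHH 28 stood far above the rest, and the difference of 1.03 did not pass (limma, adjusted p = 0.677). Onecut1, a factor of both hepatocytes and the embryonic duct, was 7.77, 7.95 and 9.004 in the GFP livers and 9.22, 9.09 and 8.48 in the SHH livers (difference 0.69; limma, adjusted p = 0.698).

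Among other genes used as marks of progenitor or fetal liver cells, 8 of 16 had higher and 8 lower means in SHH livers. In limma over all genes 0 passed the threshold, and the median difference was 0.00. At an unadjusted p under 0.05, 2 were higher and 2 lower, where 3.33% of all genes were higher and 4.01% lower. Without overlap, 2 had all SHH livers above the GFP livers and 3 had them below, against 5.26% and 7.25% of all genes. Cd44, a hyaluronan receptor that leukocytes also carry, measured 4.87, 4.55 and 5.12 in the GFP livers and 5.35, 5.68 and 5.80 in the SHH livers. All SHH livers were above all GFP livers, and the difference was 0.76 or 1.70-fold (limma, adjusted p = 0.409). Gpc3, a cell surface proteoglycan of fetal liver, was 3.42 to 3.64 in GFP and 3.86 to 4.04 in SHH livers (difference 0.39; limma, adjusted p = 0.576). In the opposite direction, the receptor gene Tnfrsf19 was 5.49 to 5.70 in GFP and 5.02 to 5.39 in SHH livers (difference -0.39; limma, adjusted p = 0.612). Bex1 was also lower, at 2.89 to 3.15 against 2.71 to 2.80 (difference -0.31; limma, adjusted p = 0.667), with every value below the lower quartile of its array.

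Notch signals from the portal mesenchyme direct hepatoblasts toward the duct fate. A chosen list of 17 genes from that pathway was compared, and all 17 were measured. Of these, 9 had higher and 8 lower means, 0 passed in limma over all genes, and the median difference was 0.03. At an unadjusted p under 0.05, 1 was higher and 1 lower, where 3.33% of all genes were higher and 4.01% lower. Every SHH liver lay above every GFP liver for 3 genes, against 5.26% of all genes. For 1 gene (Dll4) every SHH liver lay below every GFP liver, against 7.25% of all genes. The ligand gene Dll4, a product of endothelium, was 4.94, 4.83 and 4.87 in the GFP livers and 4.72, 3.96 and 4.30 in the SHH livers, a difference of -0.55 (limma, adjusted p = 0.576). All 8 endothelial markers also had lower means in SHH livers, with sums of 9.97 to 10.47 in GFP and 9.60 to 10.41 in SHH livers, and their part in the Dll4 signal was not tested. The receptor genes Notch3 and Notch4 were among the 3 that lay higher without overlap. Notch3 was at 4.49 to 4.57 against 4.73 to 4.89 (difference 0.29, limma, adjusted p = 0.662). Notch4 was at 4.77 to 5.01 against 5.11 to 5.22 (difference 0.27, limma, adjusted p = 0.694). Lfng, which adds sugars to Notch receptors, differed by 0.31 (limma, adjusted p = 0.785).

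Markers of surface or neighbouring tissue that could carry duct genes into a sample were compared too. The mesothelium covering the liver also makes Krt7 and Krt19, and its 6 markers had 1 higher and 5 lower means, with sums of 7.03 to 7.17 in GFP and 6.94 to 7.04 in SHH livers. Among them Gpm6a (-0.20), Wt1 (-0.18) and Lrrn4 (-0.16) differed most. For 5 pancreas acinar markers, whose neighbouring ducts make Sox9, Krt19 and Cftr, the sums were 6.67 to 6.85 and 6.58 to 6.81, and Cela1 (-0.22) differed most.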

How the data were processed

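The deposited table held log2 signals of 41345 probe sets on 6 arrays, which the authors made with RMA per the submitters' processing notes; the sources used here give no version, probe set level or annotation. RMA equalises the arrays' distributions and compresses changes of dim probe sets. Platform annotation named 1 gene for 23521 probe sets, several for 1814 and none here for 16010. The probe set naming a gene alone with the highest mean was kept (22180 genes). The groups were tested in R 4.3.3 with limma 3.58.1 (lmFit, eBayes, two-sided, no covariate or filter) and Benjamini-Hochberg adjustment over all genes. Values are log2 signals, intervals are 95%, and fold changes are 2 to the power of a difference. An exact permutation test of 3 against 3 cannot go below p = 0.1. Each liver is a separate mouse; no batch is labelled. The number of arrays limits the precision. The fit was tested on simulated data. Members and lists were chosen with earlier results of these data known. Named genes were all members, the 4 genes with the smallest p from each of the other duct, progenitor and Notch lists, up to 3 markers per cell type by largest difference and the 3 genes most correlated with a member; those of the growth factor and Sox lists fall outside this rule and were chosen after their values were seen. No sequence was printed.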

Additional observations from a re-analysis of the deposited data

How the results depend on the processing

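No paired analysis was possible because no mouse number occurs in both groups. The alternatives were other probe set choices, only genes above the median level, other normalizations and priors, array weights, every probe set on its own, a threshold of 0.1 and leaving out each mouse. No member, and no gene of the other duct, progenitor or Notch lists, was called under any of those that were run for it. Over all genes limma called 0 in the other settings and between 0 and 46 without 1 mouse; the 46 came without SHH 26, and 0 members were among them. The members' median difference ran from -0.055 (without GFP 13) to 0.083 (without GFP 21). Without 1 mouse, the differences of Sox9 (-0.10 to 0.20), Krt19 (-0.11 to 0.068), Epcam (-0.12 to 0.11), Krt7 (-0.25 to 0.067) and Prom1 (-0.061 to 0.15) took either sign. Cd24a (0.28 to 0.45, adjusted p = 0.440 to 0.875), Sox4 (-0.41 to -0.09) and Cftr (0.00 to 0.22) kept theirs. Epcam turned to 0.028 with a second quantile normalization and 0.013 with equal array medians, and Krt19 to 0.0096 with the first; the cause was not tested.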

Other observations

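Growth factors and cytokines that act on bile duct cells, with their receptors, form a list added after the data were seen, so its values are a description. Of 17 measured, 10 had higher and 7 lower means in SHH livers, and 0 passed in limma over all genes. At an unadjusted p under 0.05, 2 were higher and 1 lower, where 3.33% of all genes were higher and 4.01% lower. Without overlap, 3 had all SHH livers above the GFP livers and 2 had them below, against 5.26% and 7.25% of all genes. The oncostatin M receptor gene Osmr was 5.54, 5.36 and 5.26 in the GFP livers and 5.89, 7.15 and 6.11 in the SHH livers, a difference of 0.998. Il6ra, the interleukin 6 receptor chain, was 7.94 to 8.38 in GFP and 8.49 to 8.83 in SHH livers (difference 0.56). Their ligand genes Osm and Il6 differed by 0.05 and 0.10, with both groups overlapping. Il6 was 1.89 to 2.24 in GFP and 2.03 to 2.47 in SHH livers, every value below the lower quartile of its array. A probe set that dim reports little of a change. Osm, with a mean of 3.76, also lay below the median level of all genes (4.69). Lif was 3.66 to 3.93 in GFP and 3.30 to 3.63 in SHH livers (difference -0.32). Hgf and Met, a growth factor and its receptor that act on hepatocytes and duct cells, differed by 0.18 and -0.14, and Fgf7 and Fgfr2 by -0.01 and -0.02.

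The other members of the Sox family, also a list added later, were compared in the same way. In both lists the genes named were chosen after their values were seen. Of 17, 4 had higher and 13 lower means, where 56.2% of all genes were lower, and 0 passed in limma over all genes. At an unadjusted p under 0.05, 1 was higher and 0 were lower, where 3.33% of all genes were higher and 4.01% lower. Sox12, of the same subgroup as Sox4, was 3.31 to 4.09 in GFP and 4.14 to 4.36 in SHH livers (difference 0.47). Sox17, a factor of endothelium and of the embryonic bile duct, was 4.72 to 4.80 in GFP and 4.31 to 4.68 in SHH livers (difference -0.29).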
